A study of Mus musculus with 8 samples.

Results

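Brevican (Bcan) and 9 other genes of matrix proteoglycans and related leucine-rich proteins were followed in the thoracic aorta of mice with and without Fto. The members were found as all non-control probes whose identifier is a RefSeq transcript of Bcan, Vcan, Acan, Ncan, Hspg2, Bgn, Fmod, Prelp, Ogn or Aspn, which gave 13 of the 55681 probes and 9 of the 10 genes (of 21368 named genes on the array). No probe carried a RefSeq transcript of Prelp, and it was not analysed here. Of the 13 probes, 11 passed the filter on dim signal and were tested, at least 1 for each of the 9 genes. The set was selected on measured values, namely the difference of Bcan between the genotypes and the signals of these probes in the same arrays, so the differences of the members are given as a description. No p is given for a member. The number of members past the threshold of the fit is given beside that of all probes, and its changes with the processing are listed. Nothing is read from either.

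Samples were 4 Fto -/- and 4 Fto +/+ aortas. Fto encodes an enzyme that removes methyl groups from RNA. Both genotypes shared a mixed C57BL6J/NMRI background, the male label, a day of 12 h light and 12 h darkness, and RNA with an integrity number over 8. Left unstated are how the Fto allele was made, whether the deletion is restricted to a cell type, and the age of the mice. No label ties a sample to its own animal, so errors measure the spread between these samples, which may be partly technical.

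Proteoglycans are proteins that carry long sulfated sugar chains, the glycosaminoglycans. The lecticans versican (Vcan), aggrecan (Acan), neurocan (Ncan) and brevican bind hyaluronan through one end of the protein, where link proteins (the Hapln genes) stabilise the complex. Versican is the main lectican of the artery wall, aggrecan is best known from cartilage, and neurocan and brevican are best known from the nervous system. Perlecan (Hspg2) is a heparan sulfate proteoglycan of basement membranes. Biglycan (Bgn), fibromodulin (Fmod), Prelp, osteoglycin (Ogn) and asporin (Aspn) are small leucine-rich proteins of the collagen matrix.

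The windows of 250 bases before the transcript start of Bcan, Aspn and Ogn are shown because Bcan and Aspn had the most negative and the most positive difference among the tested member probes and because Ogn, which lies near Aspn on chromosome 13, differed in the other direction from Aspn. They are from RefSeq on GRCm38.p6 and read 5′ to 3′ toward the start. Capitals mark matches on either strand to a TATA box (TATAAA), a GC box (GGGCGG) or a CCAAT box (CCAAT). The Bcan window is chr3:88000357-88000606 on the minus strand, that of Aspn is chr13:49544193-49544442 on the plus strand, and that of Ogn is chr13:49607765-49608014 on the plus strand.
Bcan: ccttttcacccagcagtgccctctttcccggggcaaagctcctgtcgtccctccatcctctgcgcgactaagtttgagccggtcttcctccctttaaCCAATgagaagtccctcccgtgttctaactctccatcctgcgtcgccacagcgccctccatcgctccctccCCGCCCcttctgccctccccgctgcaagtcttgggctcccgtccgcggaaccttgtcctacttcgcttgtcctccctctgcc
Aspn: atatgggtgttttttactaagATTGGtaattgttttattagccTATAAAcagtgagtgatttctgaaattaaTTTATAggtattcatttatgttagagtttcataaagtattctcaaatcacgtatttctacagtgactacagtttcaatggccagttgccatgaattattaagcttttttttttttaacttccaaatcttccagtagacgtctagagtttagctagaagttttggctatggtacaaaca
Ogn: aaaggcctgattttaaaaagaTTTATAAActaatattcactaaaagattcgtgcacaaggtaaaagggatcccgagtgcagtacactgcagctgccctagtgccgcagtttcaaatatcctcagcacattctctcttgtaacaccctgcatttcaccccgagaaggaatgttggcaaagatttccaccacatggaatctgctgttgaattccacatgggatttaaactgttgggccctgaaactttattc
The Bcan window held 62% G and C, with 1 CCAAT match that began 153 bases before the start and 1 GC box match at 82 bases. The Aspn and Ogn windows held 30% and 42% G and C, against a median of 52.4% over all 32851 windows. In the Aspn window were TATA matches at 207 and 178 bases and a CCAAT match at 229 bases. The Ogn window held 2 overlapping TATA matches, at 229 and 227 bases. Of all windows, 12.4% held the TATA, 32.7% the GC and 33.8% the CCAAT letters. The CArG box, which serum response factor binds, matched in none of the windows of the 10 member genes and in 1.47% of all windows. These matches are a description of the letters only.

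The labels contradict each other and the data in places. The free-text description of each sample names the other genotype than its title and genotype field; the groups used here follow title and genotype. The Fto probe was lower in every Fto -/- sample (49.2 to 70.1 in intensity) than in every Fto +/+ sample (409 to 751), a log2 difference of -3.08 (exact permutation test, two-sided, p = 0.0286; 4 against 4 samples can give no smaller p). The samples are labelled male, but both Xist probes were well above background on all 8 arrays, and the probes of Ddx3y, Kdm5d and Eif2s3y were on 0 of 8, while 1 Uty probe was on 1 array, Fto +/+ replicate 3. Between arrays the 75th percentile of intensity ran from 294.9 to 415.6, and 44.48% to 47.74% of probes were well above background. The smooth muscle markers Acta2 and Myh11 were well above background on all 8 arrays. Slide row 1 held Fto -/- replicates 1, 2 and 3 with Fto +/+ replicate 1, and row 2 the other 4 arrays.

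The bright Bcan probe (NM_007529) was read well above background on all 8 arrays. Levels here are log2 intensities relative to the 75th percentile of the array, so 0 is that percentile and each unit is a doubling. In Fto +/+ replicates 1 to 4 the level was 0.97, 2.99, 1.96 and 2.27, from intensities of 735, 3313, 1485 and 1543. In Fto -/- replicates 1 to 4 it was 0.34, 0.04, -0.82 and -0.11, from intensities of 475, 328, 167 and 311. Every Fto -/- sample lay below every Fto +/+ sample, and the nearest pair was Fto +/+ replicate 1 with Fto -/- replicate 1. The means were -0.14 ± 0.49 and 2.05 ± 0.84 (SD, n = 4 each), which is a log2 difference of -2.19 ± 0.41 (SE) or 4.55-fold. Bcan was also among the most variable members within the Fto +/+ group, where the highest sample was 4.06-fold above the lowest, against 2.24-fold within Fto -/-.

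A second Bcan probe (NM_001109758) was much dimmer and was not tested. It was well above background on 2 arrays, Fto +/+ replicates 2 and 4, with intensities of 80.3 and 60.9. On the other 6 arrays it lay between 7.26 and 11.4. The 2 arrays that detected it were those with the highest levels of the bright probe. 

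The Bcan difference was -1.12 within slide row 1 and -2.52 within row 2, each from 1 array against 3. In row 1 the single Fto +/+ sample was the lowest of its group. A dependence on the row was not tested and cannot be told apart from the level of the single array. With slide row as a block the difference was -1.82. Over the 8 fits that each left out 1 array the difference ran from -2.55 (without Fto +/+ replicate 1) to -1.87 (without Fto +/+ replicate 2).

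**Figure D1:**
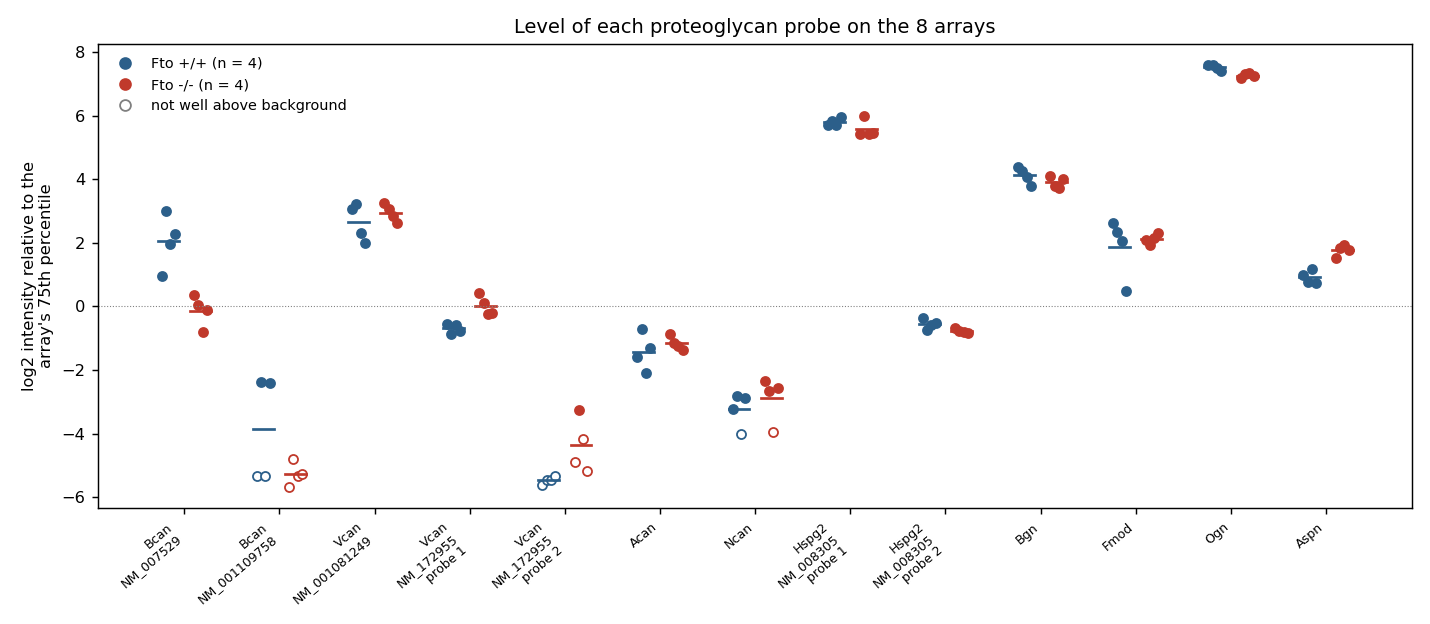
Level of all 13 probes on the 8 arrays, as log2 intensity relative to the array's 75th percentile; each point is 1 sample, horizontal lines are group means (n = 4), and open points were not well above background. The bright Bcan probe, Aspn, Ogn and a Vcan probe show no overlap between genotypes among the tested probes; heights of different probes are not an order of transcript amounts.

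Versican did not follow brevican. Its brightest probe (NM_001081249) was at 3.08, 3.21, 2.32 and 1.98 in Fto +/+ replicates 1 to 4 and at 3.24, 3.07, 2.84 and 2.64 in the Fto -/- replicates. The genotypes overlapped, and the log2 difference was 0.3 ± 0.28 (SE). It was 0.08 without Fto +/+ replicate 4, 0.05 with slide row as a block and -0.02 within row 1. A second Vcan probe (NM_172955) was at -0.55, -0.85, -0.59 and -0.76 in Fto +/+ and at 0.41, 0.11, -0.25 and -0.19 in Fto -/- samples. Here the genotypes did not overlap, and the difference was 0.71 ± 0.16 (SE). Another probe, with the same RefSeq identifier as the second, was well above background on 1 array only, Fto -/- replicate 2. Both tested Vcan probes were thus higher in Fto -/- samples by sign, by different amounts.

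Aggrecan was measured on all 8 arrays, at intensities of 88.6 to 255.8. Its level was -1.59, -0.7, -2.11 and -1.32 in Fto +/+ and -0.85, -1.14, -1.25 and -1.37 in Fto -/- samples. The Fto +/+ samples spanned a wider range and enclosed the Fto -/- samples, with a difference of 0.28 ± 0.27 (SE). The neurocan probe was dim: 3 of 4 arrays of each genotype were well above background. Its mean level was -2.88 ± 0.73 in Fto -/- and -3.23 ± 0.55 in Fto +/+ samples (SD, n = 4 each), with overlap and a difference of 0.35 ± 0.39 (SE). Thus, of the 5 tested lectican probes, 1 (Bcan) was lower by sign and 4 were higher.

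In the gene table each lectican gene has a link protein gene among its nearest protein-coding neighbours: Hapln2 beside Bcan, Hapln1 beside Vcan, Hapln3 beside Acan and Hapln4 beside Ncan. The probe of Hapln2 was well above background on 0 of 8 arrays, as was that of Hapln4. Hapln1 was measured on all 8 arrays and differed by 0.5 ± 0.28 (SE, limma adjusted p = 0.378). Hapln3 differed by 0.08 ± 0.22 (SE, limma adjusted p = 0.874). The neighbour of Bcan on its other side is Nes, which encodes the intermediate filament protein nestin. Nes differed by -0.07 ± 0.16 (SE, limma adjusted p = 0.857), with overlap between genotypes.

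Perlecan had 2 probes with one RefSeq identifier. The brighter was at intensities from 12514 to 23534 and the other from 170.0 to 291.9, although both are designed against Hspg2; a probe's brightness is therefore no measure of how abundant its transcript is beside others. Their differences were alike, at -0.22 ± 0.15 and -0.21 ± 0.11 (SE). The brighter probe was at 5.7, 5.82, 5.69 and 5.95 in Fto +/+ samples and at 5.44, 6, 5.41 and 5.46 in Fto -/- samples. Fto -/- replicate 2 stood above the other 7 arrays and made the genotypes overlap, and without it the difference was -0.36.

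Among the small leucine-rich proteins, asporin was higher in Fto -/- aortas. Asporin binds collagen and is known to restrain TGF-beta signalling. The level was 0.99, 0.78, 1.17 and 0.72 in Fto +/+ replicates 1 to 4, and 1.51, 1.84, 1.93 and 1.79 in Fto -/- replicates 1 to 4. All Fto -/- samples lay above all Fto +/+ samples, and the spread within either group (SD 0.18 in Fto -/- and 0.2 in Fto +/+) was small beside the distance between them. The difference was 0.85 ± 0.14 (SE), or 1.81-fold. It was 0.77 within slide row 1, 0.9 within row 2 and 0.83 with row as a block. Over the 19 alternatives the difference ran from 0.77 to 0.94.

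Osteoglycin gave the brightest of the member signals, with intensities of 47348 to 79977, and its probe lay above 99.2% of all probes on every array. Osteoglycin takes part in collagen fibril assembly. Its level was 7.59, 7.59, 7.51 and 7.39 in Fto +/+ and 7.17, 7.3, 7.33 and 7.23 in Fto -/- samples. The genotypes did not overlap, yet the difference was small, at -0.26 ± 0.09 (SE). Ogn was also the steadiest member, with the highest sample 1.14-fold above the lowest within Fto +/+ and 1.12-fold within Fto -/-.

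Aspn and Ogn lie in a row of leucine-rich protein genes on chromosome 13, in the order Ecm2, Aspn, Omd and Ogn. The genes of this row differed in direction. Ecm2 differed by -0.05 ± 0.11 and Omd, which encodes osteomodulin, by -0.48 ± 0.16 (SE, limma adjusted p of 0.838 and 0.159). The Omd level was 1.94, 2.45, 2.19 and 1.69 in Fto +/+ and 1.66, 1.49, 1.55 and 1.65 in Fto -/- samples, without overlap, though Fto +/+ replicate 4 lay within 0.03 of the highest Fto -/- sample. The fits without 1 array ran from -0.61 to -0.35 for Omd.

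**Figure D2:**
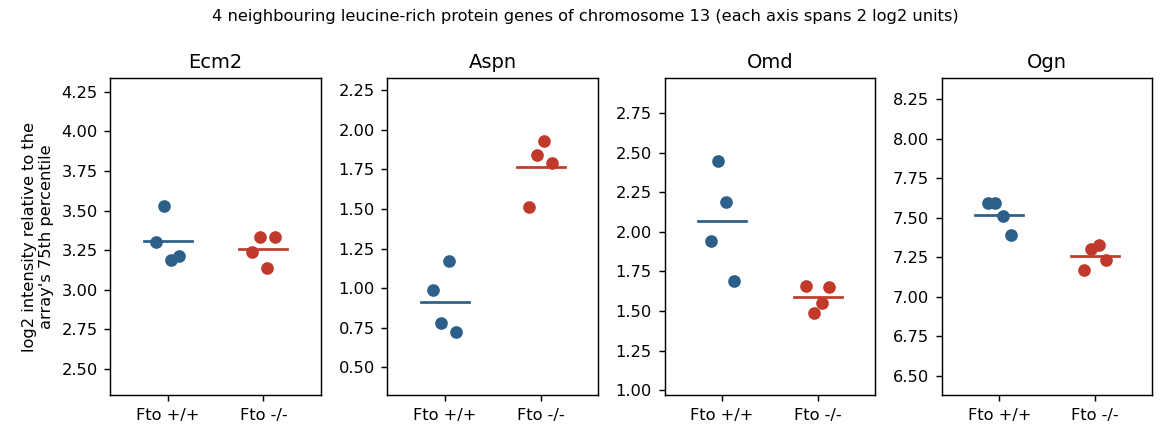
Level of the 4 neighbouring genes Ecm2, Aspn, Omd and Ogn, as log2 intensity relative to the array's 75th percentile; points are samples, lines are means of 4, and each panel spans 2 log2 units around its own middle. Aspn is higher in all Fto -/- samples, Omd and Ogn are lower in all of them, and Ecm2 overlaps.

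Biglycan, whose gene lies on chromosome X, was at 4.37, 4.27, 4.08 and 3.79 in Fto +/+ and at 4.11, 3.78, 3.71 and 4 in Fto -/- samples. The genotypes overlapped, with a difference of -0.23 ± 0.15 (SE). Fibromodulin, which controls the thickness of collagen fibrils, was at 2.61, 2.34, 2.04 and 0.49 in Fto +/+ and at 2.07, 1.94, 2.16 and 2.31 in Fto -/- samples. Fto +/+ replicate 4 was the lowest of all 8 arrays, and the highest Fto +/+ sample was 4.36-fold above it. The Fmod difference was 0.25 ± 0.41 (SE) with that array and -0.21 without it, and -0.55 within slide row 1. The gene table places Fmod next to Prelp and Optc on chromosome 1; Optc, which encodes opticin, differed by -0.57 ± 0.2 (SE, limma adjusted p = 0.188).

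Over the 11 tested member probes, 6 were higher and 5 lower by sign, and the median over the brightest tested probe of each of the 9 genes was 0.249, against -0.038 over all 13053 named genes tested. Past the threshold of the fit (limma adjusted p under 0.05) were 2 of 11 (18.2%), Bcan and Aspn, where 1.66% of all 25292 tested probes were past it (0.842% higher and 0.814% lower in Fto -/- samples). Non-overlap between genotypes was found for 4 of 11 (36.4%), where it was found for 12.1% of all tested probes. The members were chosen with this comparison in view, so these shares say nothing about the group as such.

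**Figure D3:**
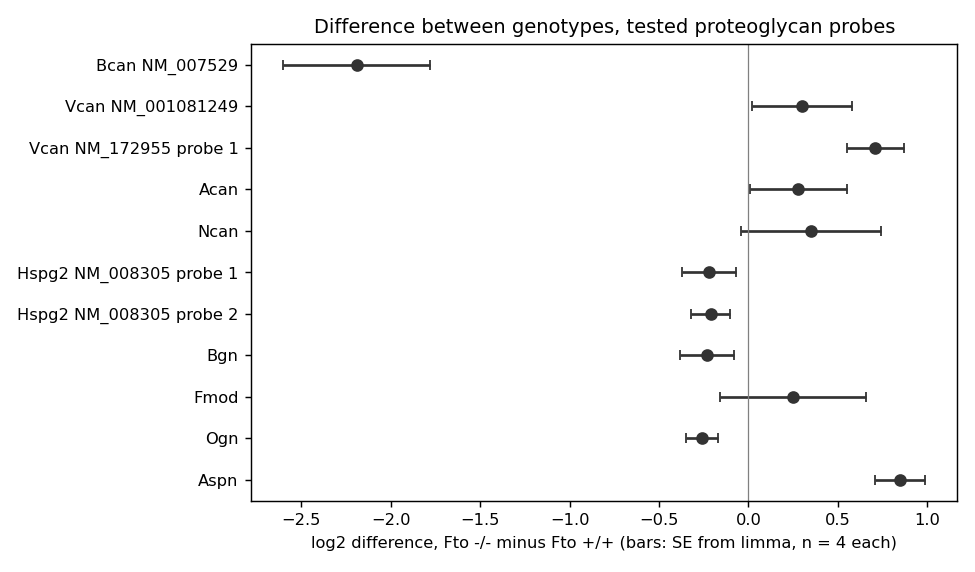
Log2 difference between genotypes (Fto -/- minus Fto +/+) for the 11 tested probes, with bars of 1 SE from limma (n = 4 each). Bcan lies at -2.19 and Aspn at 0.85, while the other 9 probes lie between -0.26 and 0.71.

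The genes whose pattern was nearest to that of Bcan were ranked by the root-mean-square distance between probes over the 8 arrays, each probe centred on its own mean. By this measure a probe that did not vary would lie 1.24 log2 units from Bcan. The 5 nearest of 13044 genes were Phyhd1 (0.54), Ano4 (0.57), Rnf39 (0.66), 4930412C18Rik (0.67) and Azin2 (0.7). Because Bcan differed between genotypes, nearness selects genes that differ in the same direction, and their differences are no test. Phyhd1, an oxygenase gene, was well above background on all 8 arrays, at 4.75 to 5.23 in Fto +/+ and 2.92 to 3.81 in Fto -/- samples. Azin2, which encodes an antizyme inhibitor, was measured on all 8 arrays too and differed by -1.1 ± 0.21 (SE). Ano4, Rnf39 and 4930412C18Rik were well above background on the 4 Fto +/+ arrays and on 0 Fto -/- arrays, so only bounds can be given: Ano4 was at least 2.25-fold lower, Rnf39 at least 2.18-fold lower and 4930412C18Rik at least 2.07-fold lower.

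**Figure D4:**
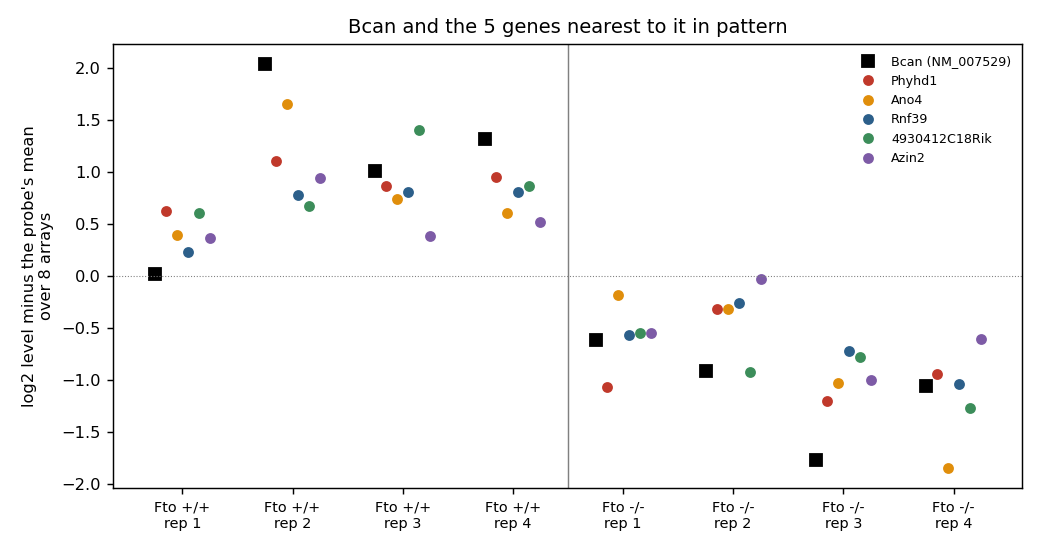
Level of Bcan (black squares) and of the 5 genes nearest to it in pattern, each minus its own mean over the 8 arrays, in log2 units, for each sample. The Fto +/+ samples lie above 0 and the Fto -/- samples below 0 for all 6 genes, and Bcan spans the widest range.

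Related genes outside the members were taken from 5 lists with 108 genes, of which 85 were tested. In the hyaluronan network 1 of 13 tested genes rose and 12 did not pass, with a median difference of 0.19. The gene that rose was Itih5, of the family whose heavy chains are attached to hyaluronan. Itih5 was at -0.17, -0.42, -0.39 and -1.17 in Fto +/+ and at 0.54, 0.35, 0.76 and 0.51 in Fto -/- samples, with no overlap. The difference was 1.08 ± 0.21 (SE, limma adjusted p = 0.0455), and it passed in 4 of 19 alternatives, with adjusted p from 0.0158 to 0.873. Of the 8 fits without 1 array it passed only in that without Fto +/+ replicate 4 (0.87). Tnc, encoding the matrix glycoprotein tenascin C, differed by 0.71 ± 0.27 (SE, limma adjusted p = 0.21).

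Of the other small leucine-rich proteoglycans, limma called 0 of 11 (4 at an unadjusted p under 0.05), with a median of -0.01. The decorin gene Dcn differed by -0.01 ± 0.16 (SE) and had a level of 8.67 ± 0.07 in Fto -/- and 8.69 ± 0.32 in Fto +/+ samples (SD, n = 4 each). The smallest p values were those of Epyc, the epiphycan gene, at 1.85 ± 0.59 (SE, adjusted p = 0.149, well above background in 2 of the Fto +/+ samples), and Omd. The lumican gene Lum differed by 0.93 ± 0.39 (SE, adjusted p = 0.24). Of the other heparan and chondroitin sulfate proteoglycans limma called 0 of 18 (5 at an unadjusted p under 0.05; median -0.04). There the testican gene Spock2 differed by 1 ± 0.21 (SE, adjusted p = 0.0546), with no overlap between genotypes, and the glypican gene Gpc1 by 0.42 ± 0.11 (SE, adjusted p = 0.104). Spock2 passed with probes well above background on all 8 arrays, with array weights and without Fto +/+ replicate 1.

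Of the 37 tested genes for enzymes that build and sulfate the sugar chains, limma called 0 (1 at an unadjusted p under 0.05), and their median was -0.05. The gene of smallest p was B4galt7, which adds a galactose of the linker on which the chains are built, at 0.37 ± 0.12 (SE, adjusted p = 0.151), followed by Ugp2 at -0.22 ± 0.11 (SE, adjusted p = 0.296). Of the proteases that cleave lecticans, with their inhibitor gene Timp3, limma called 0 of 6 (0 at an unadjusted p under 0.05, median -0.04). These counts use the brightest tested probe of each gene. For Adamts8 that probe differed by -0.01 ± 0.14 (SE, adjusted p = 0.98), while its other tested probe differed by 1.01 and was not called either. Adamts15 differed by -0.36 ± 0.19 and Timp3 by -0.08 ± 0.1 (SE, adjusted p of 0.333 and 0.67). Over all named genes, 1.8% passed and 20.7% had an unadjusted p under 0.05.

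**Figure D5:**
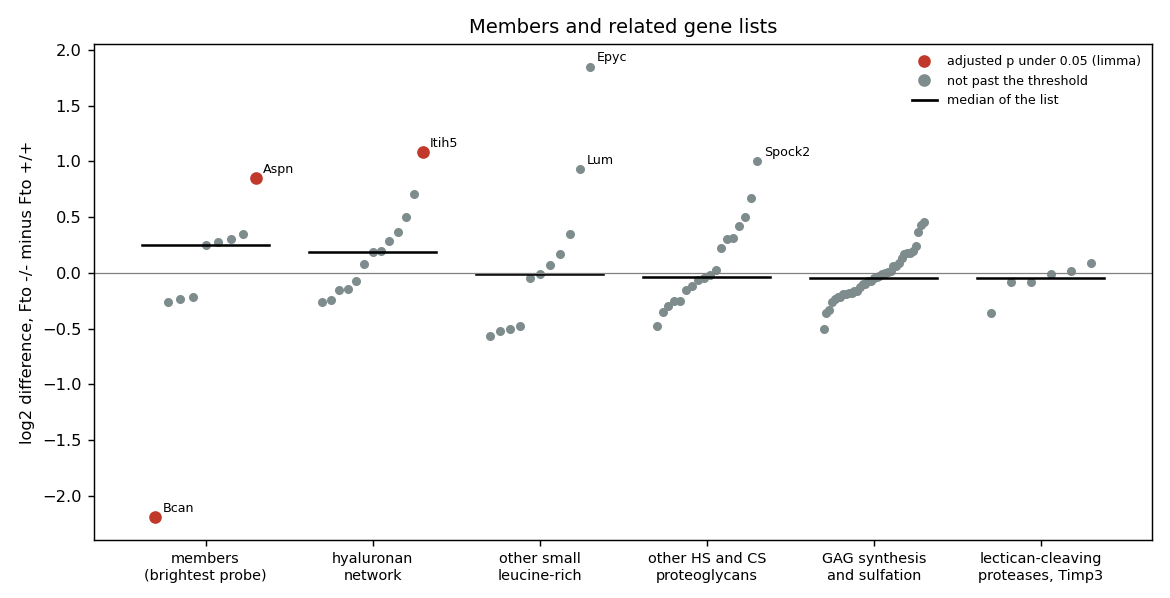
Log2 difference between genotypes (Fto -/- minus Fto +/+) of the brightest tested probe of each gene, for the members and the 5 related lists; red points passed the limma threshold, and black lines are list medians. Bcan, Aspn and Itih5 are past the threshold, and Epyc, Lum and Spock2 reach 0.9 or more without passing.

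Brevican is a nervous system lectican, so markers of glia and neurons were read in the same arrays. Of 12 glial markers, 7 were well above background on none of the arrays, among them the defining gene Sox10. Of 10 neuronal markers 6 were on none, Tubb3 among them. The summed signal of the glial list, in multiples of the array's 75th percentile, was 105 to 134 in Fto -/- and 74.7 to 111 in Fto +/+ samples, so the ranges overlapped and the Fto -/- range reached higher. Within that list 1 of 3 probes of Ncam1, a cell adhesion gene, went the other way, as Bcan did: its intensities were 151 to 234 in Fto -/- and 269 to 490 in Fto +/+ samples, a difference of -0.71 ± 0.14 (SE, limma adjusted p = 0.0465). The other 2 Ncam1 probes differed by 0.09 ± 0.14 and 0.08 ± 0.1 (SE, limma adjusted p of 0.775 and 0.696). The first of these, at intensities of 13000 to 23800, was the Ncam1 probe in the sum. The summed signal of the neuronal list was 54.4 to 72 in Fto -/- and 30.5 to 70.8 in Fto +/+ samples. That of the melanocyte list was 5.88 to 10.8 and 7.39 to 9.26, with 3 of 6 genes on no array. In whole tissue, fewer cells of a type and less RNA per cell cannot be told apart.

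The summed chondrocyte signal was 24.8 to 31 in Fto -/- and 10.3 to 22 in Fto +/+ samples, without overlap, in the direction of Aspn. Of its 10 markers 5 were on no array, including the defining gene Col2a1, and most of the sum came from Comp, which tendon and vessel wall cells also express and which differed by 0.72 ± 0.24 (SE, limma adjusted p = 0.161). Sox9 was well above background on 4 Fto -/- and 0 Fto +/+ arrays and was at least 1.48-fold higher, a gene that passed the filter only through its Fto -/- arrays. The fibroblast list gave 826 to 1020 and 620 to 1040, smooth muscle 2650 to 3000 and 2650 to 3380, and endothelium 108 to 155 and 116 to 166. Most of the smooth muscle sum came from Acta2, Tagln and Cnn1, and limma called 0 of that list's 10 genes. Lmod1 (-0.78 ± 0.17, SE, limma adjusted p = 0.0681) and Cnn1 (-0.32 ± 0.1, adjusted p = 0.148) were lower without overlap. Smtn, Mylk and Myocd were lower by sign with overlap, and Acta2, Myh11, Tagln, Actg2 and Des were higher by sign. Skeletal and cardiac muscle gave 21.1 to 32.5 and 29.7 to 56.2, mostly from Acta1, which differed by -0.53 ± 0.15 (SE, limma adjusted p = 0.123). Myh1, Myh2 and Myh4 were well above background on 0 Fto -/- arrays. Fto +/+ replicate 3 read them at 801, 1250 and 200, and replicate 1 read Myh4 at 713. Myh7 differed by -1.46 ± 0.38 (SE, limma adjusted p = 0.0942), without overlap. The part of muscle tissue in the other differences was not tested. Thymocytes and T cells gave 4.51 to 15.5 and 4.01 to 13. A dimmer probe of the thymocyte gene Rag1 was well above background on Fto +/+ replicate 4 only (67.9), an array that was not left out here. The brighter Rag1 probe was well above background on 4 arrays (Fto -/- replicates 1, 3 and 4 and Fto +/+ replicate 2). Without those 4 arrays, 1 Fto -/- array (replicate 2) and 3 Fto +/+ arrays remain. The difference was then -1.7 for Bcan and 0.88 for Aspn, with 0 of all probes past the threshold in that fit, so it is given as a value only. Fat around the vessel varied most. White adipocyte markers gave 235 to 600 in Fto -/- and 96.4 to 512 in Fto +/+ samples. Brown adipocyte markers gave 107 to 508 and 44.4 to 109, with Ucp1 well above background on all 8 arrays. The brown sums overlapped only through Fto -/- replicate 2 (107) and Fto +/+ replicate 3 (109). Cidea (1.88 ± 0.47), Cox7a1 (2 ± 0.56), Fabp3 (1.19 ± 0.3) and Otop1 (1.41 ± 0.36, SE) did not overlap between genotypes, nor did 12.1% of all tested probes. Ucp1 (2.9 ± 0.94), Cox8b and Ppargc1a were higher with overlap, and Dio2 was lower by sign (-0.07 ± 0.35). From the brown list limma called 0 of 9 genes. Within Fto +/+, replicate 2, with the highest Bcan, had the lowest white and brown sums (96.4 and 44.4). Replicate 1, with the lowest Bcan of that group, had the next lowest (218 and 58.6). Within Fto -/-, replicate 3, with the lowest Bcan, had the highest white and brown sums (600 and 508). Replicate 1, with the highest Bcan of that group, had 235 and 176. The part of these tissues in the differences of Bcan and Aspn was not tested.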

How the data were processed

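Gene expression was read with a one-colour (Cy3) Agilent mouse microarray, 1 array per sample. Intensity values were deposited for each spot as background-subtracted signals without normalisation between arrays; per the file headers, they come from version 11.0.1.1 of Agilent Feature Extraction. A table of log2 values was also deposited by the authors, centred on each probe's median; its direction and centring were settled by setting it against the scanner values (correlations from 0.983 to 0.997, slopes from 0.958 to 1.006, column medians from -0.00954 to 0.0048), and how it was normalised is not stated. The flags of spots well above background, or outlying, are other values of those deposited files.

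Control spots (3671) and outlier spots (126 to 189 per array) were left out, and spots of one of the 55681 probes were averaged. A level is log2 of the processed intensity minus that of the array's 75th percentile. Probes well above background on at least 4 of 8 arrays were tested (25292) with limma 3.58.1 in R 4.3.3, with Benjamini-Hochberg adjustment over all of them and a threshold of 0.05; the fit was tested on simulated data. RefSeq accessions named 28331 probes (50.9%) through a gene table of assembly GRCm38.p6, while the array is annotated on mm9. The tested probe of highest mean stood for a gene.

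The members and gene lists were chosen with earlier results of these data known. The genes named are the members, Fto, the genes of each list past the threshold or else the 2 of smallest p, the 5 genes nearest to Bcan in pattern, and markers; Tnc, Lum, Hapln1 to Hapln4, Dcn, Nes, Ecm2, Optc, Stab2, Chsy3, Comp, Sox9, Ncam1 and the sex-linked genes were named after their values were seen. The alternatives were other normalisations and filters, the series table, array weights, blocks, slide rows and left-out arrays. The planned normexp correction used median spot signals, because the files used here hold no mean signals. A single slide (1) and scan date (1) held the 8 arrays; the labels give the genotypes the same replicate numbers, but deviations of same-numbered samples correlated at 0.155, -0.024, -0.019 and -0.041, so the numbers were not taken as pairs. The number of arrays limits the precision.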

Additional observations from a re-analysis of the deposited data

Results flagged for a closer look

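Of 50 groups of 4 samples examined, 3 held a sample that stood far from the other samples of its group by Dixon's test, and chance alone flags about 1 group in 20. For the brighter Hspg2 probe, Fto -/- replicate 2 was at 6, while the other Fto -/- samples were between 5.41 and 5.46. For Rnf39, Fto +/+ replicate 1 was at -2.78, while the other Fto +/+ samples were between -2.23 and -2.2. For Timp3, Fto +/+ replicate 1 was at 7.02, and the other Fto +/+ samples were at 6.9.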

How the results depend on the processing

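The direction of Bcan and Aspn held in all 19 alternatives, from -2.55 to -1.12 and from 0.77 to 0.94, but limma's threshold was passed in 6 and 8 of them. Of the 8 fits without 1 array, Bcan passed it only without Fto +/+ replicate 1. Aspn passed it only without Fto -/- replicate 1, Fto +/+ replicate 3 or Fto +/+ replicate 4. The members were chosen with this comparison in view, so these counts describe the fit and are no test of either gene. Bcan was at -1.12 within slide row 1. Probes past the threshold (419) numbered 96 with no filter on dim probes, 132 with the replicate block, 46 with slide row as a block, 0 and 1 within rows 1 and 2, 0 without the Rag1 arrays, 1624 with array weights, and 101 to 886 when 1 array was left out, 886 without Fto +/+ replicate 4. Member probes past it (2) were 0 with no filter, the replicate block, the row block, either row or without the Rag1 arrays, and 0 to 1 with 1 array left out. Genes of the related lists past it (1) were 0 with quantile normalisation, the series table, no filter, the replicate block, the row block, either row or without the Rag1 arrays, 2 with probes above background on all 8 arrays, 3 with array weights, and 0 to 1 with 1 array left out. The cause of these changes was not tested. The fits within rows and without the Rag1 arrays also held fewer samples, and the part of this in the lower counts was not tested. Fto was at -2 with normexp, -3.33 within row 2 and -2.66 without the Rag1 arrays. Signs turned for the bright Vcan probe within row 1 (-0.02), the bright Hspg2 probe without the Rag1 arrays (0.22), Fmod with 1 array left out (-0.21 without Fto +/+ replicate 4, and up to 0.5 without Fto +/+ replicate 1) and within row 1 (-0.55), and Adamts15 without the Rag1 arrays (0.07), with no cause tested. Probes near background, such as Ncan and the dim Bcan probe, limit what can be read of those transcripts.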

Other observations

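Some genes of the related lists were well above background on too few arrays to be tested. Stab2, an endothelial hyaluronan receptor, was well above background on 3 of 4 Fto -/- and 0 of 4 Fto +/+ arrays. Its level was -3.3 to -2.76 in Fto -/- and -4.57 to -3.61 in Fto +/+ samples. Chsy3, a chondroitin synthase, was on 0 of 4 Fto -/- and 3 of 4 Fto +/+ arrays. Its levels overlapped, at -3.76 to -3.35 in Fto -/- and -3.77 to -2.98 in Fto +/+ samples. Both genes were dim and were named after their values were seen. The share of all probes with such counts was not taken. Tnr and Cemip were on 1 Fto +/+ array each and on 0 Fto -/- arrays.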
